A study of Mus musculus with 12 samples.

Results

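The genes described here are 9 early transcriptional targets of RAS-ERK signalling: the PEA3-type ETS factors Etv1, Etv4 and Etv5, the EGR zinc-finger factors Egr1, Egr2 and Egr3, and the early response genes Ier2, Ier3 and Phlda1. They were taken by symbol from the deposited value table, a rule that uses no measured value, although the set was put together with earlier results of these data known. All 9 were measured, by 11 probe sets, among 19505 genes, and no filter on low values was applied. Their transcript levels were compared in primary mouse embryonic fibroblasts of 4 genotypes with 3 arrays each: Sos1/2DKO, which lack both Sos1 and Sos2, Sos1KO, Sos2KO and wild type (WT). The cells came from C57/BL6 embryos at E13.5, were used at low passage in serum, and were harvested subconfluent while growing. All 4 groups, WT included, had been kept in 4-hydroxytamoxifen for 12 days. The labels name neither the Sos alleles, nor a Cre line, nor the embryo behind each culture. P-values therefore describe the spread among these cultures alone.

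SOS1 and SOS2 are exchange factors that load RAS with GTP after receptor tyrosine kinases are activated, and RAS-GTP starts the RAF-MEK-ERK kinase cascade. Phosphorylated ternary complex factors, which bind beside SRF at CArG boxes, then switch on immediate early genes such as Egr1, Egr2 and Ier2 without new protein synthesis. The PEA3 factors are read as a slower output of the same pathway: the repressor CIC holds them down when ERK is quiet and is inactivated when ERK signals. In fibroblasts such genes respond within the first hours to serum.

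Promoter sequences are shown for Egr2, whose RefSeq windows held the CArG box of SRF, and for Etv5, in which 1 window held the TGAATG core of CIC sites at several places. RefSeq windows (build GRCm38.p6) were given for 4 of the 9 genes, with 2 windows for Etv1, 2 for Etv5, 5 for Egr2 and 1 for Ier3, numbered here in the order of transcription, and the 250 bases before each annotated start were searched on both strands. Capitals mark the CArG boxes in the Egr2 sequences and every TGAATG or its reverse complement in the Etv5 sequence, and each runs 5′ to 3′ on the strand of the gene, ending at the base before the start. The Egr2 sequences lie at chr10:67537316-67537565 and chr10:67537619-67537868 on the plus strand, and the Etv5 sequence lies at chr16:22438369-22438618 on the minus strand.
Egr2, window 2: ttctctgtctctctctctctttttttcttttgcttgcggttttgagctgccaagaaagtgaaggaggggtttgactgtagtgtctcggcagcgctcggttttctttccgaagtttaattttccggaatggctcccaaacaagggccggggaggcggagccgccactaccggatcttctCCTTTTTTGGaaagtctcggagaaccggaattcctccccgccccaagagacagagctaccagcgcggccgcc
Egr2, window 3: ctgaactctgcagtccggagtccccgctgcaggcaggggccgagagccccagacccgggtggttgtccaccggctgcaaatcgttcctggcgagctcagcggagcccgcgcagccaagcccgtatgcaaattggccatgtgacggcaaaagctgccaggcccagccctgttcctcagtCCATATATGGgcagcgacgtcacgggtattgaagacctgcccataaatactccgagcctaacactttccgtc
Etv5, window 2: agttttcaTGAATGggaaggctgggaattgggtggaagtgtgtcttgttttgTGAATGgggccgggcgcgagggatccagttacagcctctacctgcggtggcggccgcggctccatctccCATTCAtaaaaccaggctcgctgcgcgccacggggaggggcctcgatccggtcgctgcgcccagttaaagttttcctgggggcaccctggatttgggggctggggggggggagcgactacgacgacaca

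The CArG box began 72 bases before the start in each Egr2 sequence shown. A CArG box was found in 1.47% of the 32851 mouse windows of this length, and 4 of the 5 Egr2 windows held a box; in 3 of these 4, which overlap, it is the same box. Window 2 of Egr2 also held the ETS hexamer CCGGAA at 3 places, 131, 129 and 48 bases before the start, 2 of which overlap. That hexamer occurred in 12% of all windows, and its 4-base core GGAA, which overlaps the right end of the CArG box in that window, in 93.4%. The Etv5 sequence held TGAATG at 3 places, 242, 198 and 129 bases before the start, where 10.9% of windows held the core at all and 0.131% held it 3 times or more. Window 1 of Etv5 and both Etv1 windows held no TGAATG, the Ier3 window held 1, and the Etv1, Etv5 and Ier3 windows held no CArG box. The CRE sequence TGACGTCA (1.55% of windows), the EGR site GCGNGGGCG (4.7%) and the AP-1 site TGANTCA (6.75%) were not found in the windows of the 4 genes. Each TGAATG of the Etv5 sequence is followed by GG on its own strand, and longer forms of the CIC site were not searched. A match is a run of letters and no measurement of binding.

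The arrays carried some marks that the labels do not give. Sos1 and Sos2 were lower in every array of a group named for their loss than in every array of the other groups. Sos1 stood at 28.5% of the WT level in Sos1KO and 33.8% in Sos1/2DKO. For Sos2 the values were 45.5% in Sos2KO and 49.6% in Sos1/2DKO, and the source of the remaining signal was not tested. The fibroblast markers (10 of 11 measured) averaged 10.3 to 11.3 on the log2 scale on every array, where weak signal was judged by 5222 probe sets for introns, whose 75th percentile (the intron control percentile) lay between 5.01 and 5.76. A bacterial spike-in transcript (Dap) was raised on all 3 Sos2KO arrays, Sos1/2DKO replicate 1 and Sos1KO replicate 3, and high-GC background probes were highest on Sos2KO replicates 1 and 2. All 3 Sos1/2DKO arrays expressed Y-linked genes, against 1 Sos1KO, 2 Sos2KO and 1 WT array. The means of 14 measured macrophage markers of 15 ranged over 5.23 to 6.22 in Sos1/2DKO, 6.19 to 7.22 in Sos1KO, 4.95 to 5.86 in Sos2KO and 5.72 to 7.53 in WT. In such bulk samples, fewer cells of a type and less RNA per cell cannot be told apart.

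Among the 9 genes, Etv4 and Phlda1 fell in the Sos1/2DKO cultures relative to WT, to 44.6% and 28.3% of the WT level. The other 7 were not called (a limma adjusted p under 0.05 over all genes), although Egr2, Ier2, Etv5 and Egr1 had log2 fold changes between -1.53 and -0.99. The 2 members called are to be read against the 5.94% of all genes called in this comparison, with 4.16% of genes called lower. By the unadjusted p 4 members were under 0.05 (Etv4, Egr2, Ier2 and Phlda1), where 19.8% of all genes were. On the arrays themselves, 4 members lay lower on all 3 Sos1/2DKO arrays than on any WT array, where 12.6% of all genes did. The median log2 fold change of the members was -1.14, and that of all genes was 0.055.

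**Figure D1:**
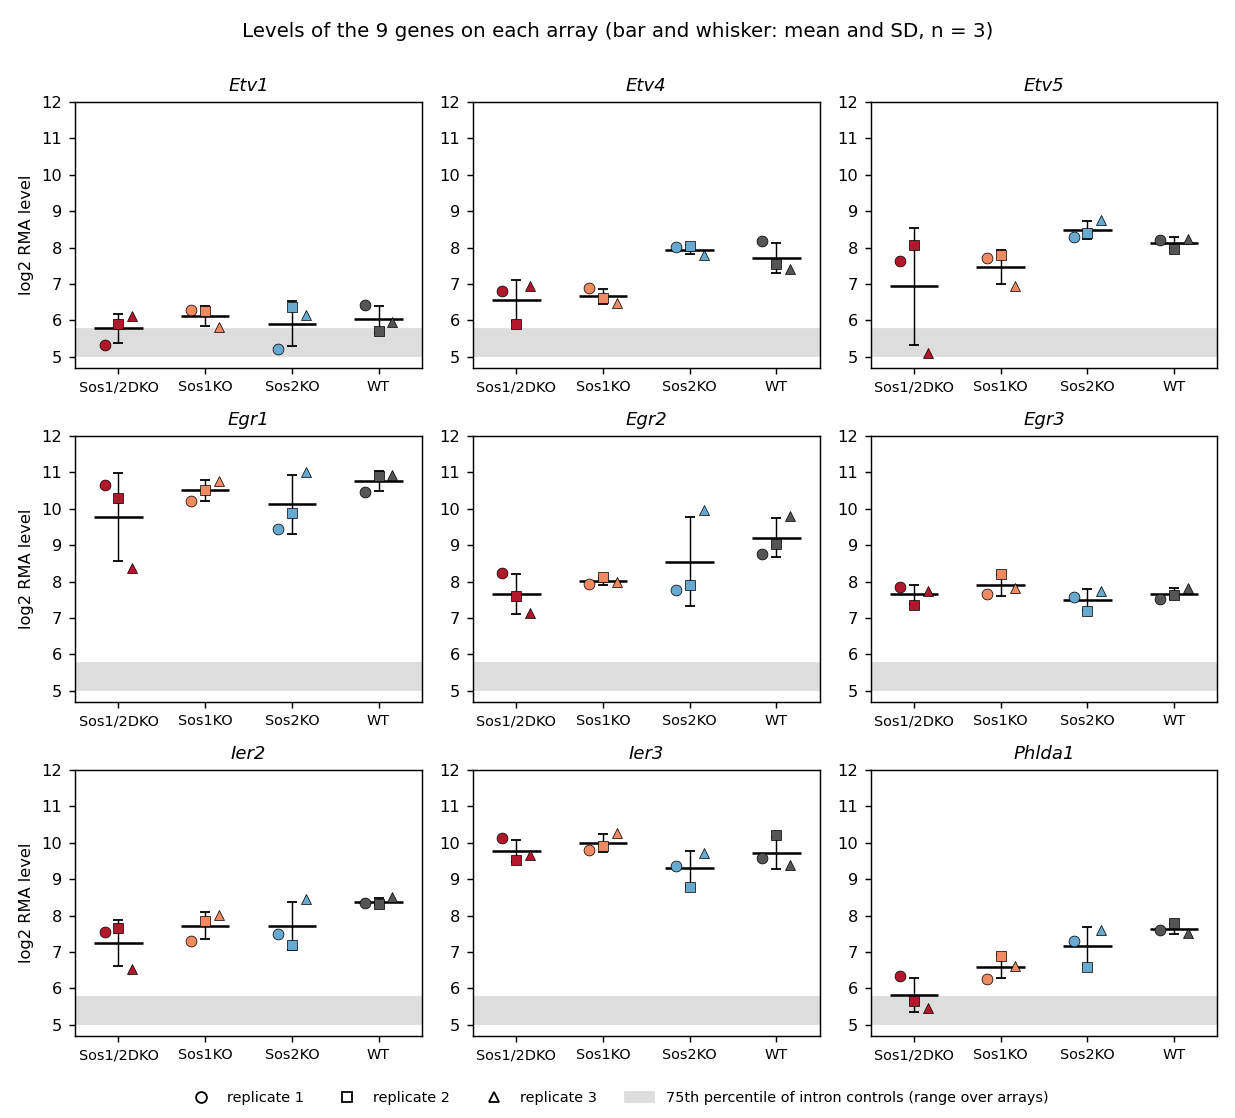
Log2 RMA level (vertical axis) of the 9 genes on each of the 12 arrays, by genotype (horizontal axis), with the mean and SD of each group as bar and whisker and the range of the intron control percentile in grey. Etv4 separates Sos1/2DKO and Sos1KO from Sos2KO and WT, Phlda1 steps down over all 4 genotypes to 5.81 in Sos1/2DKO, and the 4 groups of Egr3 overlap.

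Etv4, a PEA3 factor that acts in branching organs and limb outgrowth, was low wherever Sos1 was lost. Its log2 level was 6.82, 5.89 and 6.94 in Sos1/2DKO and 6.89, 6.62 and 6.48 in Sos1KO. It was 8.01, 8.03 and 7.79 in Sos2KO, and 8.19, 7.54 and 7.41 in WT. Each of the 6 arrays without Sos1 lay below each of the 6 arrays with it, and the Sos2KO and WT arrays overlapped. Relative to WT, Etv4 fell in Sos1/2DKO, at -1.16 on the log2 scale with an SE of 0.27 (limma adjusted p = 0.0255). In Sos1KO the difference from WT was of nearly the same size but was not called (-1.05, SE 0.27, limma adjusted p = 0.095). In Sos2KO it was 0.23 (SE 0.27, limma adjusted p = 0.718).

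The Etv4 call against WT was lost under 5 of the 22 alternatives. Without WT replicate 1 the log2 fold change was -0.93 (limma adjusted p = 0.118), and without WT replicate 2 it was -1.25 (limma adjusted p = 0.0515). With a term for embryo sex Etv4 stood at -1.28 (limma adjusted p = 0.0657), and within the arrays without the spike-in, 2 of Sos1/2DKO and 3 of WT, at -1.30 (limma adjusted p = 0.0957). With the 2 groups fitted alone the Etv4 value was the same and not called (limma adjusted p = 0.0896), while Egr2 was called there (limma adjusted p = 0.0475). Over the 22 alternatives its value lay between -1.36 and -0.84, and the part of sex or of the spike-in batch in it was not tested further. With the macrophage marker level as a covariate the value of Etv4 was -1.24 (limma adjusted p = 0.0347), against -1.16 without it. The part of macrophage content in this value was not tested further.

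Etv5, the PEA3 factor with the TGAATG repeats shown above, had its lowest level on a single array. It measured 7.64, 8.08 and 5.09 in Sos1/2DKO and 7.71, 7.79 and 6.94 in Sos1KO. In Sos2KO it measured 8.28, 8.39 and 8.77, and in WT 8.22, 7.97 and 8.22. Sos1/2DKO replicate 3 lay below the intron control percentile, Sos1/2DKO replicate 2 lay within the WT range, and all 3 Sos1KO arrays lay below WT while all 3 Sos2KO arrays lay above it. The log2 fold change of Etv5 in Sos1/2DKO was -1.20 (SE 0.56, limma adjusted p = 0.26), and -0.28 (SE 0.26) without replicate 3. In Sos1KO it was -0.66 (limma adjusted p = 0.856), and in Sos2KO 0.34 (limma adjusted p = 0.81).

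Etv1, the remaining PEA3 factor, was weak and did not order the genotypes. Its log2 levels ran over 5.33 to 6.11 in Sos1/2DKO, 5.82 to 6.30 in Sos1KO, 5.22 to 6.38 in Sos2KO and 5.70 to 6.42 in WT, close above the intron controls in every group. The ranges all overlapped. The log2 fold change in Sos1/2DKO was -0.25, with a 95% confidence interval of -0.90 to 0.41. Whether the probe set could show a fall so near the intron controls was not tested.

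Egr2, a zinc-finger factor needed for hindbrain segments and myelinating Schwann cells, was lower than WT on 8 of the 9 knockout arrays. Its log2 level was 8.25, 7.61 and 7.15 in Sos1/2DKO and 7.94, 8.12 and 7.98 in Sos1KO. In Sos2KO it was 7.77, 7.92 and 9.96, against 8.77, 9.03 and 9.80 in WT. All Sos1/2DKO and Sos1KO arrays and Sos2KO replicates 1 and 2 lay below every WT array, and Sos2KO replicate 3 was the highest of the 12. The log2 fold change was -1.53 in Sos1/2DKO (SE 0.48, limma adjusted p = 0.0875) and -1.19 in Sos1KO (SE 0.48, limma adjusted p = 0.354), neither of which passed. Restricted to arrays free of the spike-in, the Sos1/2DKO value was -1.82 (limma adjusted p = 0.0371). The Schwann and neural crest markers, of which 6 of 8 were measured, averaged 4.91 to 5.07 in Sos1/2DKO and 4.75 to 5.15 in WT, with 2 or 3 of the 6 above the intron control percentile on every array.

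Egr1, the widely expressed EGR factor, was high in all groups. Its log2 level was 10.64, 10.30 and 8.38 in Sos1/2DKO and 10.22, 10.53 and 10.78 in Sos1KO. In Sos2KO it was 9.45, 9.88 and 11.02, and in WT 10.45, 10.90 and 10.94. Each knockout group overlapped WT, and Sos1/2DKO replicate 3 was the lowest array. The log2 fold change in Sos1/2DKO was -0.99 (SE 0.50, limma adjusted p = 0.303) and -0.29 (SE 0.37) without that array. In Sos1KO it was -0.26 (limma adjusted p = 0.99), and in Sos2KO -0.64 (limma adjusted p = 0.575).

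Egr3, the EGR factor of muscle spindles and activated lymphocytes, showed no order of the genotypes on the probe set kept. Its log2 levels ran over 7.36 to 7.86 in Sos1/2DKO, 7.66 to 8.21 in Sos1KO, 7.20 to 7.75 in Sos2KO and 7.53 to 7.83 in WT. Between Sos1/2DKO and WT the difference was -0.01 (95% confidence interval -0.45 to 0.42). Egr3 is the only member with several probe sets, and they disagree in level: the 3 averaged 7.68, 7.16 and 5.23 over the 12 arrays, and the last was under the intron control percentile on 7 arrays. The probe set kept and that at 7.16 carry identifiers that mark them as unmapped, so whether they read Egr3 transcripts was not tested. None of the 3 was called in any of the 8 comparisons.

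Ier2, an early response gene that acts in the nucleus, had a narrow WT range and was below it on 8 of the 9 knockout arrays. It measured 7.56, 7.66 and 6.53 in Sos1/2DKO and 7.30, 7.84 and 8.02 in Sos1KO. In Sos2KO it measured 7.50, 7.19 and 8.46, against 8.34, 8.31 and 8.51 in WT. Sos2KO replicate 3 was the exception, within the WT range. The log2 fold change was -1.14 in Sos1/2DKO (SE 0.34, limma adjusted p = 0.0726), -0.67 in Sos1KO (limma adjusted p = 0.528) and -0.67 in Sos2KO (limma adjusted p = 0.398). In Sos1/2DKO it was -0.78 without replicate 3 (limma adjusted p = 0.226) and -1.34 without replicate 2, where it was called (limma adjusted p = 0.0488).

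Ier3, an early response gene linked to cell survival, was not lower in Sos1/2DKO. Its log2 levels ran over 9.54 to 10.13 in Sos1/2DKO, 9.80 to 10.27 in Sos1KO, 8.79 to 9.73 in Sos2KO and 9.38 to 10.22 in WT. The 3 Sos1KO arrays lay above the 3 Sos2KO arrays and all other pairs of groups overlapped. Sos1/2DKO minus WT was 0.05 on that scale (95% confidence interval -0.54 to 0.64), and between Sos1KO and Sos2KO it was 0.71 (limma adjusted p = 0.159).

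Phlda1, a pleckstrin-homology-like protein induced by growth factor signalling, showed the clearest fall among the 9 genes. Its log2 level was 6.35, 5.64 and 5.45 in Sos1/2DKO and 6.26, 6.88 and 6.63 in Sos1KO. In Sos2KO it was 7.30, 6.60 and 7.59, against 7.60, 7.79 and 7.52 in WT. All 6 arrays without Sos1 lay below every WT array, Sos1/2DKO and Sos1KO overlapped by 1 array, and Sos2KO reached into both neighbours. Phlda1 fell in Sos1/2DKO, with a log2 difference of -1.82 (SE 0.28, limma adjusted p = 0.00582). The size is uncertain since 2 of the 3 Sos1/2DKO arrays were under the intron control percentile. In Sos1KO the log2 fold change was -1.05 (SE 0.28, limma adjusted p = 0.107), and in Sos2KO it was -0.47 (SE 0.28, limma adjusted p = 0.457). Phlda1 was called in Sos1/2DKO under all 22 alternatives, at values between -2.10 and -1.58, among them -1.95 with the macrophage covariate and -2.09 on the arrays without the spike-in.

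**Figure D2:**
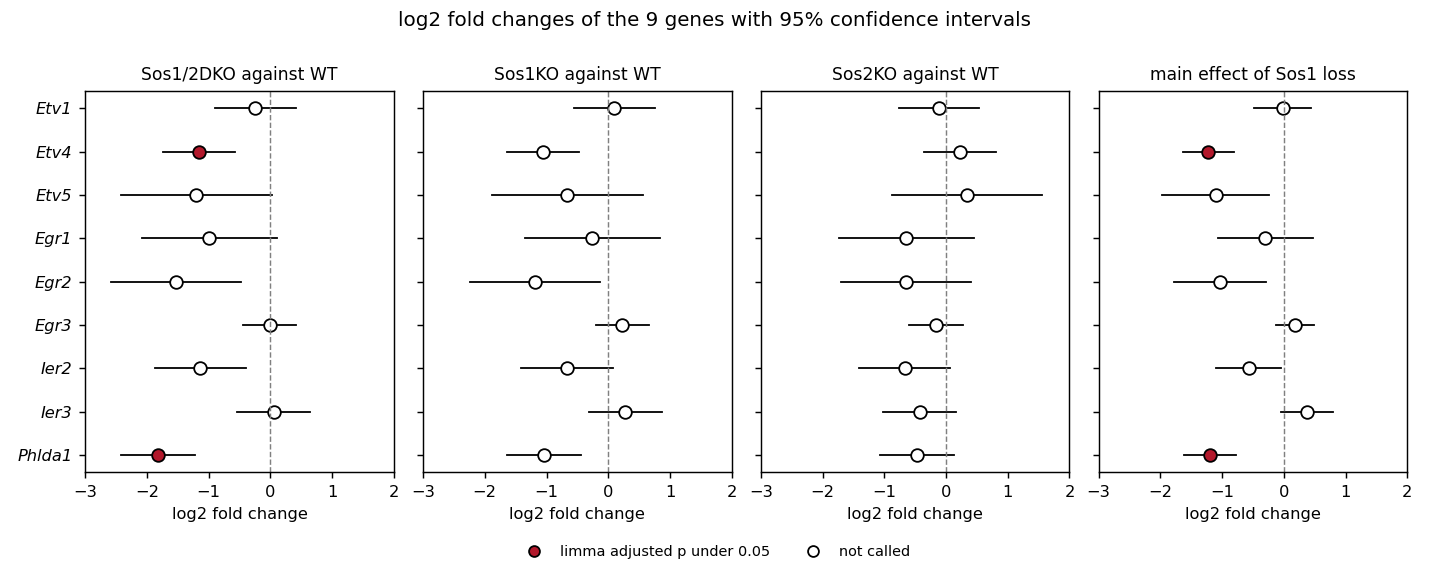
Log2 fold change (horizontal axis) of each gene with its 95% confidence interval in 4 comparisons; filled points passed a limma adjusted p of 0.05. Etv4 and Phlda1 are filled in Sos1/2DKO against WT and in the main effect of Sos1 loss, and no point is filled for Sos1KO or Sos2KO against WT.

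Against WT, Sos1KO gave 0 called members, where 0.62% of all genes were called. By the unadjusted p, 3 members were under 0.05, Etv4, Phlda1 and Egr2, where 11.1% of all genes were. On the arrays, 5 members lay lower on all 3 Sos1KO arrays than on any WT array (Etv4, Etv5, Egr2, Ier2 and Phlda1), where 11.5% of all genes did. The median of the members was -0.66, and that of all genes was 0.011.

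Averaged over the presence and absence of Sos2, loss of Sos1 lowered Etv4 and Phlda1. This main effect sets the 6 Sos1/2DKO and Sos1KO arrays against the 6 Sos2KO and WT arrays, each pair of genotypes weighted equally, and called 10.3% of all genes, with 5.63% of all genes called lower. Etv4 averaged 6.61 without Sos1 and 7.83 with it, a difference of -1.22 (SE 0.19, limma adjusted p = 0.00225), lower on 6 of 6 arrays. Phlda1 averaged 6.20 without Sos1 and 7.40 with it (-1.20, SE 0.20, limma adjusted p = 0.00283), with 1 Sos2KO array inside the range of the arrays without Sos1. Etv4 was the 1 member whose 6 arrays without Sos1 all lay below the other 6, where 2.69% of all genes did so. By the unadjusted p 5 members were under 0.05 (Etv4, Etv5, Egr2, Ier2 and Phlda1), where 23% of all genes were. The 5 endothelial markers, of which 0 to 2 were above the intron control percentile on any array, averaged 4.54, 4.58 and 5.23 in Sos1/2DKO and 4.47 to 5.02 in Sos1KO, against 5.16 to 5.41 in Sos2KO and 5.17 to 5.42 in WT, so that 5 of the 6 arrays without Sos1 lay below all arrays with it, and their part in these values was not tested. Etv4 and Phlda1 were called under all 26 alternatives, Etv4 at values from -1.36 up to -1.06 and Phlda1 at values from -1.34 up to -1.0.

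Of the other members, Etv5 (-1.10, SE 0.40, limma adjusted p = 0.107) and Egr2 (-1.03, SE 0.34, limma adjusted p = 0.0774) had main effects of similar size that did not pass. The value of Etv5 was -0.64 (SE 0.17, limma adjusted p = 0.0378) without Sos1/2DKO replicate 3, a smaller difference with less spread, and -1.39 (limma adjusted p = 0.0322) without Sos1/2DKO replicate 2. The value of Egr2 was -1.41 with the high-GC background as a covariate, where it was called (limma adjusted p = 0.021), -1.23 without Sos2KO replicate 1, where it was called just under the threshold, and -0.68 without Sos2KO replicate 3 (limma adjusted p = 0.0683). Ier2 stood at -0.57 (limma adjusted p = 0.175), Egr1 at -0.30 and Etv1 at -0.02. Egr3 (0.19) and Ier3 (0.38, limma adjusted p = 0.271) had values above 0.

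Whether loss of both genes did more than the sum of the single losses was asked with the interaction of the 2 deletions. No member was called by limma, and 0 had an unadjusted p under 0.05, where 0% of all genes were called and 4.93% had an unadjusted p under 0.05. The largest interaction among the members was that of Etv5, at -0.88 (95% confidence interval -2.61 to 0.84), and the smallest adjusted p was 0.943. For Etv4 the interval ran from -1.17 to 0.49 and for Phlda1 from -1.15 to 0.55, so extra changes of up to about the size of the single Sos1KO difference lie inside them.

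Set against Sos1KO, Sos1/2DKO gave 0 called members, where 0.00513% of all genes were called, and Phlda1 alone had an unadjusted p under 0.05 (-0.78, SE 0.28, limma adjusted p = 0.609). All 9 members had a log2 fold change below 0 in this comparison, where 45.5% of all genes were below 0. Their median was -0.35, against 0.025 over all genes. The count of 9 leaned on single arrays. Without Sos1/2DKO replicate 3, Etv5 in Sos1/2DKO stood at -0.28 against WT, less far below WT than Sos1KO (-0.66). Without Sos1/2DKO replicate 2 the same held for Etv4 (-0.84, against -1.05 in Sos1KO). With all arrays, Etv4 differed least among the PEA3 factors, at -0.11 (95% confidence interval -0.69 to 0.47). None of the 9 genes had all 3 Sos1/2DKO arrays below all 3 Sos1KO arrays, where 4.94% of all genes did. By the unadjusted p, 7.2% of all genes were under 0.05.

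Set against Sos2KO, Sos1/2DKO had lower Etv4 (-1.40, SE 0.27, limma adjusted p = 0.0128) and Phlda1 (-1.35, SE 0.28, limma adjusted p = 0.0163). These 2 called members stand beside 6.14% of all genes called and 2.8% called lower. By the unadjusted p 3 members were under 0.05, where 22% of all genes were. Etv4, Phlda1 and Etv5 did so without overlap of the arrays, where 9.41% of all genes did. Etv5 had a difference of -1.54 (SE 0.56, limma adjusted p = 0.126), whose size leaned on Sos1/2DKO replicate 3. That array measured 5.09, against 7.64 and 8.08 on replicates 1 and 2 and 8.28 to 8.77 in Sos2KO. Without Sos1/2DKO replicate 2, which kept the low array, Etv5 was called (-2.11, limma adjusted p = 0.0497). Both calls ended with the spike-in as a term (Etv4 -1.35, limma adjusted p = 0.0735, and Phlda1 -1.06, limma adjusted p = 0.125). They ended with the high-GC background as a covariate (Etv4 -1.22, limma adjusted p = 0.1, and Phlda1 -1.42, limma adjusted p = 0.0796) and without Sos2KO replicate 1 (Etv4 -1.36, limma adjusted p = 0.0546, and Phlda1 -1.28, limma adjusted p = 0.069). Etv4 was also not called without Sos2KO replicate 2 (-1.35, limma adjusted p = 0.0502). Phlda1 was not called with the 2 groups alone (limma adjusted p = 0.0556) or without Sos1/2DKO and Sos2KO replicates 3 (-0.95, limma adjusted p = 0.0735). The 8 skeletal muscle markers averaged 5.07, 5.70 and 5.81 in Sos1/2DKO, against 5.81 to 6.04 in Sos2KO, with no overlap but a gap under 0.01, and the endothelial markers given above were lower on 2 of the 3 Sos1/2DKO arrays than on any Sos2KO array. The part of either list in these values was not tested.

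Between the single knockouts, Etv4 was lower in Sos1KO than in Sos2KO (-1.29, SE 0.27, limma adjusted p = 0.0265), the only member called, where 4.29% of all genes were called and 1.49% were called lower. Etv4 and Etv5 lay lower without overlap of the arrays, where 12.3% of all genes did, and Ier3 lay higher, where 13.6% did. By the unadjusted p 2 members were under 0.05, where 20.9% of all genes were. Etv5 had the same direction (-1.0, SE 0.56, limma adjusted p = 0.335). The Etv4 call ended without Sos1KO replicate 2 or 3 or Sos2KO replicate 1 or 2 (limma adjusted p between 0.0924 and 0.107), while its value stayed between -1.26 and -1.19 in those fits. It ended too with the spike-in term (-1.24, limma adjusted p = 0.131), the high-GC covariate (-1.04, limma adjusted p = 0.481) and the sex term (-1.23, limma adjusted p = 0.0582). The macrophage markers, higher in Sos1KO than in Sos2KO on every array, moved with this comparison, and with their level as a covariate Etv4 stood at -1.12 (limma adjusted p = 0.209). Endothelial markers (4.47 to 5.02 in Sos1KO, against 5.16 to 5.41 in Sos2KO) and skeletal muscle markers (5.30 to 5.80 in Sos1KO, against 5.81 to 6.04 in Sos2KO) also separated the 2 groups, and their part was not tested.

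Sos2KO against WT gave 0 called members by limma, 0 with an unadjusted p under 0.05, and 0% of all genes called, where 13.9% had an unadjusted p under 0.05. Sos2 itself, though lower on every Sos2KO array than on any WT array, was not called (-1.14, SE 0.18, limma adjusted p = 0.278). A count of 0 therefore does not show that the members were unchanged. The 3 Sos2KO arrays did not behave alike for these genes. Etv5 was the 1 member whose 3 Sos2KO arrays lay above all WT arrays, where 9.47% of all genes did, and 0 lay wholly below, where 10.7% did. Replicates 1 and 2 each had 6 of the 9 members below every WT array, and replicate 3 had 0 below and 3 above every WT array. For such counts on single arrays the share over all genes was not computed, so a shift of the whole array was not told apart. Egr1, Egr2 and Etv5 had their highest level of the 12 arrays on Sos2KO replicate 3.

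Over all arrays the log2 fold change of Egr2 in Sos2KO was -0.65 (limma adjusted p = 0.556), and with the high-GC background as a covariate it was 0.47. Without Sos2KO replicate 3, Egr2 was called in Sos2KO against WT (-1.36, limma adjusted p = 0.0461), among 720 genes called. Sos2KO replicates 1 and 2 are also the arrays with the highest background on high-GC probes (8.85 and 9.0, against 7.65 to 8.31 on the other arrays), and all 3 carry the spike-in while no WT array does, so genotype and spike-in batch cannot be told apart within these 2 groups. The direction of the members differs by array in this group, and no direction is drawn from its mean.

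**Figure D3:**
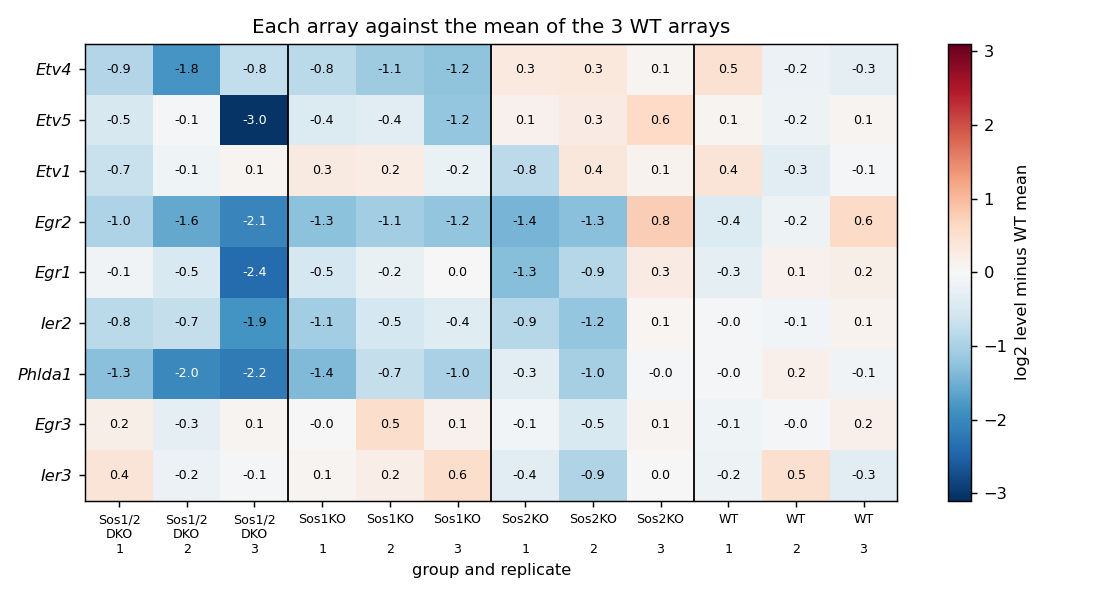
Log2 level of each gene (rows) on each array (columns) minus the mean of the 3 WT arrays, with the value printed in each cell. Blue cells for Egr2, Ier2 and Phlda1 run through the Sos1/2DKO and Sos1KO arrays and Sos2KO replicates 1 and 2, while for Etv4 they stop at the Sos1KO arrays; Sos1/2DKO replicate 3 is lowest for 5 genes and Sos2KO replicate 3 is highest for 3.

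Sos1/2DKO replicate 3 stood apart as well for these genes, and how it ranked over all genes was not computed. It was the lowest of the 12 arrays for Etv5, Egr1, Egr2, Ier2 and Phlda1, and its members averaged 1.36 log2 units below the WT mean, against 0.52 and 0.81 below on replicates 1 and 2. Leaving it out took the log2 fold change in Sos1/2DKO to -0.28 for Etv5 and -0.29 for Egr1, while Etv4 (-1.36), Egr2 (-1.27) and Phlda1 (-1.64) changed less. This array and Sos2KO replicate 3 were also both left out, a choice made after the values were seen. Against WT, Egr2 was then called in Sos1/2DKO (-1.27, limma adjusted p = 0.0351), among 887 genes called. In Sos2KO Egr1 (-1.10, limma adjusted p = 0.0333), Egr2 (-1.36, limma adjusted p = 0.0338) and Ier2 (-1.04, limma adjusted p = 0.0305) were called. They were among 1079 genes called there. Since the choice followed the values of these same genes, the calls are no test of them.

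**Figure D4:**
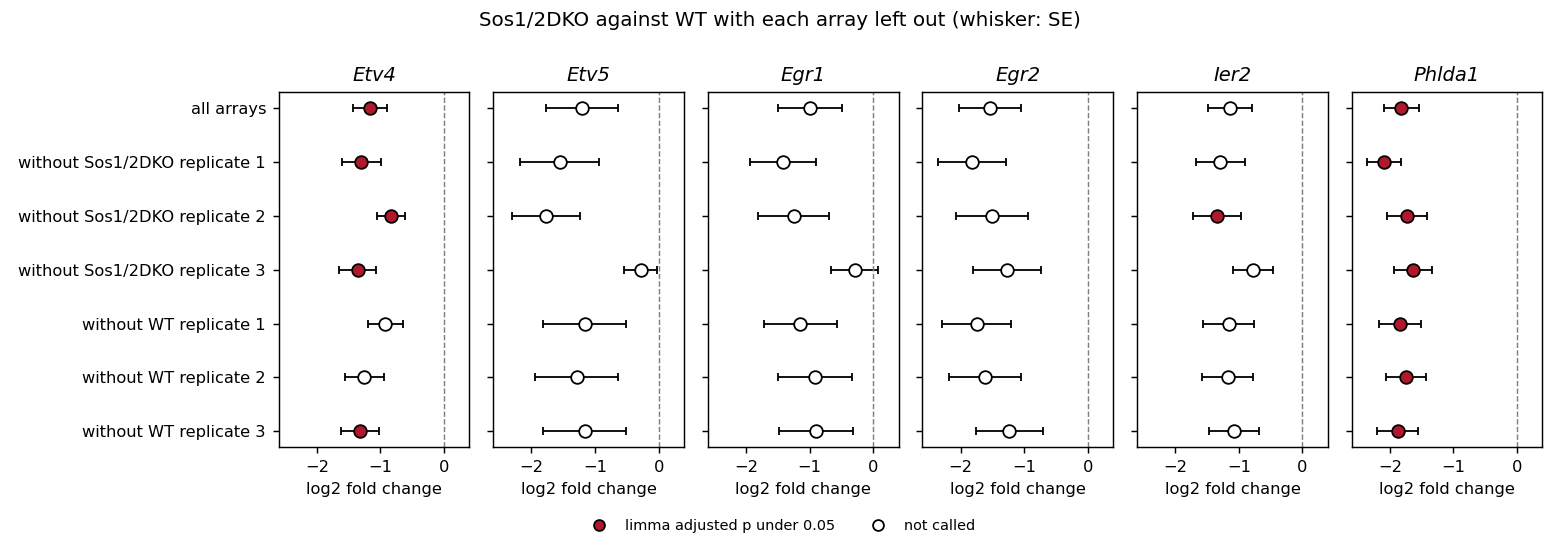
Log2 fold change in Sos1/2DKO against WT (horizontal axis) with all arrays and with each array of the 2 groups left out (rows), with its SE; filled points passed a limma adjusted p of 0.05. Phlda1 is filled in every row, Etv4 is open without WT replicate 1 or 2, and Etv5 and Egr1 move close to 0 without Sos1/2DKO replicate 3.

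The centred levels of the members were set against each other over the 12 arrays. After each gene was centred on its own mean, the root mean square difference was 0.36 log2 units for Egr1 and Ier2, 0.44 for Ier2 and Phlda1 and 0.45 for Egr2 and Ier2, against 0.89 for Etv4 and Etv5. Egr3 and Ier3 were the closest pair, at 0.31, and such a difference is also small where both genes vary little. These values describe 12 arrays that share genotype and batch, and do not show joint variation.

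The genes outside the group whose centred levels came closest to Etv4 were S1pr1, a sphingosine-1-phosphate receptor (0.20 log2 units), Fhl3 (0.22) and the thioesterase Acot7 (0.25), where the median over all genes was 0.72. Closest to Phlda1 were cyclin E1 (Ccne1, 0.28), the ERK phosphatase Dusp5 (0.29) and the protein kinase A subunit Prkar2a (0.30), with a median of 0.81. The log2 fold changes of these 6 genes in Sos1/2DKO against WT lay between -1.84 and -1.01, a direction that their choice fixes.

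Among genes listed here as slower outputs of ERK signalling, 10 of the 18 measured fell in Sos1/2DKO against WT, where 4.16% of all genes were called lower. Speed of response was not measured, so the split into delayed and immediate early lists is a choice. Of 20 genes listed as delayed ERK outputs 18 were measured, and 0 rose and 8 were not called (median -1.29, against 0.055 over all genes). Among those that fell were Dusp6, which removes phosphate from ERK (-2.22, SE 0.34, limma adjusted p = 0.00582), the growth regulator Myc (-1.70, limma adjusted p = 0.00652) and the AP-1 component Fosl1 (-1.38, limma adjusted p = 0.00845). Myc measured 8.29, 8.26 and 8.62 in Sos1/2DKO, against 10.14, 10.18 and 9.93 in WT, with no overlap. For the main effect of Sos1 loss 10 fell too, where 5.63% of all genes were called lower, with a median of -0.91 over the 18, against 0.013 over all genes. In Sos1/2DKO against WT the count was 3 without WT replicate 1 and 6 without WT replicate 2 or 3, and Dusp6, Myc and Fosl1 were called under all 21 alternatives run for them. This list and those that follow were chosen with earlier results of these data known, so their counts are no independent test.

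Other genes listed as immediate early did not share one direction. Of 30 measured, Gadd45b rose (0.97, SE 0.16, limma adjusted p = 0.00669), and Nfkbiz (-1.41, SE 0.22, limma adjusted p = 0.00582) and Sgk1 (-1.10, limma adjusted p = 0.0454) fell in Sos1/2DKO against WT, while the other 27 were not called (median -0.07). The 3 called of 30 stand beside 5.94% of all genes called. The call of Sgk1 held in 9 of 21 alternatives and those of Gadd45b, a stress-response gene, and Nfkbiz, a nuclear regulator of NF-kappaB, in all 21.

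For the main effect of Sos1 loss, Gadd45b (0.57), the orphan receptor Nr4a3 (0.87) and Fos (1.71, SE 0.43, limma adjusted p = 0.0247) rose, and Nfkbiz (-0.63) and Klf10 (-0.64) fell, 5 of 30 where 10.3% of all genes were called. Klf10 was called in 15 of 25 alternatives, and not with the spike-in term or the macrophage covariate, Nr4a3 in 20 and Nfkbiz in 23. Fos, the AP-1 gene with the classic SRF-dependent promoter, measured 9.01, 10.62 and 9.41 in Sos1/2DKO and 9.74, 10.02 and 9.76 in Sos1KO. It measured 6.37, 6.32 and 8.98 in Sos2KO, and 8.24, 9.54 and 8.83 in WT. Sos1KO lay above WT without overlap, Sos1/2DKO overlapped WT, and Sos2KO replicates 1 and 2 lay lowest. The main effect of Fos was called in 17 of 25 alternatives and lost, among others, without Sos2KO replicate 1 or 2. Against WT itself Fos was not called, at 0.81 (limma adjusted p = 0.506) in Sos1/2DKO and 0.97 (limma adjusted p = 0.692) in Sos1KO.

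Of 23 other ETS factors listed 22 were measured, with 2 called where 5.94% of all genes were. They were Erg and Elk3. In Sos1/2DKO against WT Erg rose (2.43, SE 0.49, limma adjusted p = 0.0143) and Elk3, a ternary complex factor, fell (-0.83, limma adjusted p = 0.0467, called in 9 of 21 alternatives), while 20 did not pass. Erg, an ETS factor known from endothelial and cartilage cells, measured 8.49, 9.28 and 7.23 in Sos1/2DKO, against 5.44, 6.12 and 6.14 in WT. The endothelial markers averaged 4.54 to 5.23 in Sos1/2DKO, against 5.17 to 5.42 in WT, and their part in the Erg result was not tested. The call of Erg ended with the embryo sex term, without WT replicate 1 and within the arrays without the spike-in. For the main effect of Sos1 loss Erg (1.70) and Elf1 (0.50) rose and Etv6 (-0.60), an ETS repressor, fell. These 3 called of 22 stand beside 10.3% of all genes called.

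Among 14 proteins that regulate PEA3 and EGR factors, Nab2 fell and 13 did not pass in Sos1/2DKO against WT, where 4.16% of all genes were called lower. Nab2 is a corepressor that binds EGR proteins and is itself an EGR target. It measured 8.94, 8.67 and 8.09 in Sos1/2DKO, 9.09, 8.88 and 9.21 in Sos1KO, 9.38, 10.03 and 10.73 in Sos2KO and 10.47, 9.76 and 10.47 in WT. All 6 arrays without Sos1 lay below all 6 arrays with it. Its log2 fold change was -1.67 in Sos1/2DKO against WT (SE 0.32, limma adjusted p = 0.0118; 0.0611 without WT replicate 1) and -1.33 for the main effect of Sos1 loss (SE 0.23, limma adjusted p = 0.00336), called there under all 25 alternatives. Cic, the repressor of PEA3 genes, stood at 0.15 (limma adjusted p = 0.752) and Srf at -0.46 (limma adjusted p = 0.225) in Sos1/2DKO against WT. The family members Ier5, Ier5l, Phlda2 and Phlda3 gave 0 calls of 4 in Sos1/2DKO against WT and in the main effect, with log2 fold changes in Sos1/2DKO against WT between -0.36 and 0.17.

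**Figure D5:**
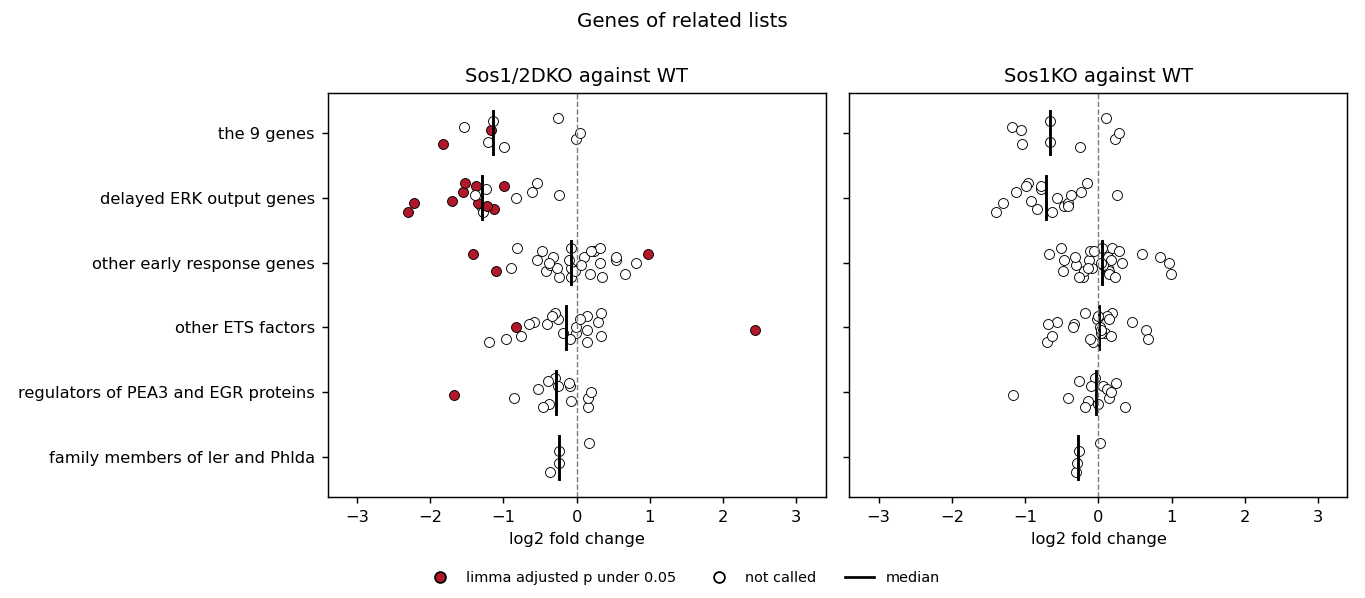
Log2 fold change (horizontal axis) of the 9 genes and of the genes of 5 related lists (rows) in Sos1/2DKO and Sos1KO against WT, with the median of each list as a bar and filled points for a limma adjusted p under 0.05. The medians of the 9 genes and of the delayed ERK outputs are -1.14 and -1.29 in Sos1/2DKO, and those of the other lists lie between -0.28 and -0.07.

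The authors' deposited tables list probe sets at an adjusted p of up to 0.25, where the value table holds 29129 probe sets. They hold 4 of the 9 genes among 2507 listed for Sos1/2DKO, 4 among 2306 for Sos1KO and 0 among 59 for Sos2KO. In the authors' deposited table for Sos1/2DKO the adjusted p was 0.0346 for Phlda1, 0.0975 for Egr2, 0.14 for Ier2 and 0.163 for Etv4. In the authors' deposited table for Sos1KO it was 0.0771 for Phlda1, 0.11 for Egr2, 0.11 for Etv4 and 0.191 for Ier2. At the same cutoff the fit used here held 4 members in Sos1/2DKO against WT (19.6% of all genes), 2 in Sos1KO against WT (5.7%) and 0 in Sos2KO against WT (0%). It held 3 in Sos1/2DKO against Sos2KO (23.7%), 2 in Sos1KO against Sos2KO (22%) and 5 in the main effect of Sos1 loss (25.1%). Etv1, Etv5, Egr1, Egr3 and Ier3 are in none of the authors' deposited tables.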

How the data were processed

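Transcripts were measured on Affymetrix arrays, 1 per culture, in 4 groups of 3 taken from the sample titles. The authors deposited log2 RMA values made in R 3.6.3, per the submitters' processing notes. The log2 fold changes in the authors' deposited tables match differences of group means (largest gap 6.22e-09), knockout minus WT. Per the file headers, those deposited tables also give t and B scores beside each p-value. The genome build behind the array annotation is not given in the sources used here. RMA gives no detection call, and the number of arrays limits the precision.

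Of 29129 probe sets, 19572 had 1 gene symbol, 0 had several and 9557 none. The probe set of highest mean was kept for 55 genes with several, leaving 19505. A limma 3.58.1 model (R 4.3.3) took 1 mean per group over all 12 arrays (8 residual degrees of freedom), two-sided, with Benjamini-Hochberg adjustment over all genes. The script was tested on simulated data. Members and lists were chosen with earlier results of these data known. From each list, up to 3 genes per direction of smallest adjusted p are named. The 3 genes closest to each called member are named, apart from small RNAs, immunoglobulin segments, predicted genes and those of the olfactory and vomeronasal families. Promoter motifs and the marking in the sequences were chosen after the values were seen. The labels do not say whether replicate numbers pair the samples, and the main fit did not pair them. Deviations of same-numbered arrays correlated at -0.35 to 0.30, which does not settle it, since differently numbered arrays were not compared. Enrichment tables were not used here.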

Additional observations from a re-analysis of the deposited data

How the results depend on the processing

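Each member's log2 fold change was judged again under normalization, filter, probe set, variance, batch, sex, macrophage, array and threshold choices, 1620 values in all. Of these 1570 kept their status as called or not called, 22 lost a call and 28 gained one. Some of the 28 gained it only through the looser threshold of 0.25, with the value and adjusted p unchanged. Among the 1570, 83 values whose interval includes 0 changed sign, and 0 called values did. The count over all 19505 genes moved as well and is given in brackets. The number of members called in Sos1/2DKO against WT (2, with 1158 genes called) was 1 with the sex term (404 genes). It was 4 at an adjusted p under 0.25 (3829 genes), and 1 to 3 with single arrays left out. In Sos1KO against WT (0, with 121 genes) it was 2 with array weights (1680 genes) and 2 at 0.25 (1112 genes). With the 2 groups alone it was 1 (274 genes). In Sos2KO against WT (0, with 0 genes) it was 0 to 1 with single arrays left out. Without Sos1/2DKO and Sos2KO replicates 3 it was 3 (1079 genes). That pair of arrays was chosen after the values were seen. In Sos1/2DKO against Sos2KO (2, with 1197 genes) the number of members called was 0 with the spike-in term (289 genes). With the high-GC covariate it was 0 (196 genes). It was 1 with the 2 groups alone (466 genes), 0 to 3 with single arrays left out and 1 without the 2 replicates 3 (1798 genes). In Sos1KO against Sos2KO (1, with 836 genes) it was 0 with the spike-in (12 genes), high-GC (2 genes), sex (300 genes) or macrophage (0 genes) terms. It was 2 at 0.25 (4294 genes), 0 to 1 with single arrays left out and 3 without the 2 replicates 3 (2393 genes). The main effect of Sos1 loss (2, with 2017 genes) gave 5 at 0.25 (4897 genes) and 3 with the high-GC covariate (1586 genes). It gave 2 to 3 with single arrays left out. The causes were not tested. With the replicate number as a block the counts of members were 2, 0, 0, 0, 2, 1, 0 and 2 in the 8 comparisons, as without it, and 925 genes were called in Sos1/2DKO against WT in place of 1158, 65 in Sos1KO against WT in place of 121. Median centring moved the median of all genes by at most 0.09. Phlda1 and Etv5 have only weak signal on some Sos1/2DKO arrays.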
